A study of Mus musculus with 9 samples.

Results

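Blood vessel growth and stability are steered by the receptor tyrosine kinases of endothelial cells and by their secreted ligands. This account covers 10 mouse genes of that system, of 27179 in the count table. They are the VEGF receptors Kdr, Flt1 and Flt4, the receptor Tek and its relative Tie1, the co-receptor Nrp1, and the ligands Vegfc, Pgf, Angpt1 and Angpt2. They were taken by name, with symbols paired to the Entrez identifiers of the table, and all 10 were found and passed the filter on low counts. RNA sequencing of spinal cord was done in 9 C57BL/6 mice, 3 per group. One group was Control. Another had experimental autoimmune encephalomyelitis (EAE), in which the immune system attacks the cord and which serves to model multiple sclerosis. The last had EAE and received oral EHP-101, 20 mg/kg (EAE+EHP-101, also called treated here). EHP-101 is known as an oral agent acting on the nuclear receptor PPAR gamma and the cannabinoid receptor encoded by Cnr2. All mice were of 1 strain with no transgene named. The sources used here do not state the age, the day of sampling, the length of treatment or what Controls received.

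Kdr (VEGFR2) carries most of the growth and permeability signal of VEGF in endothelium. Flt1 (VEGFR1) binds the same ligand tightly but signals weakly, and so can act as a trap. Flt4 (VEGFR3) answers Vegfc and is best known from lymphatic vessels. Tek (Tie2) is held active by Angpt1, which keeps vessels tight, while Angpt2 mostly opposes this, and Tie1 has no well defined ligand of its own and tunes Tek. In brain and spinal cord these receptors stand on the endothelium that forms the blood-brain barrier, whereas Nrp1 and several ligands are also made by neurons, glia, mural cells or myeloid cells.

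Libraries held 30448507 to 32661741 counts, and no member was without counts in any library. CPM, the unit of level used here, divides each count by its library's total after TMM adjustment. Endothelial identity was checked with 20 markers outside the members, and none of them was at 0 in any library. They summed to 558 to 792 CPM in Control, 424 to 560 CPM in EAE and 574 to 699 CPM in treated mice. Myeloid markers summed to 239 to 307, 1015 to 1366 and 322 to 519 CPM in the same groups, and T cell markers to 0.253 to 0.591, 10.1 to 12.4 and 0.832 to 5.67 CPM. Skeletal muscle genes stood at 41.4 CPM in Control replicate 1 and at 2.16 to 3.11 CPM in the other libraries. The 6 Hox genes of the cord, which mark position along its length, were detected in every library, but 2 of them were lower in EAE, as given beside the receptors.

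The 5 receptor tyrosine kinase genes all fell in EAE, by unequal amounts, and the 250 bases before the RefSeq start of each are printed here (GRCm38.p6, the same assembly as mm10, gene strand, 5′ to 3′). Capitals mark GGAA or its reverse complement TTCC, the core letters bound by ETS factors, a family known to act on endothelial genes. Kdr lies at chr5:75978456-75978705 (minus strand), Flt1 at chr5:147726012-147726261 (minus), Flt4 at chr11:49609429-49609678 (plus), Tek at chr4:94739039-94739288 (plus) and Tie1 at chr4:118489850-118490099 (minus).
Kdr: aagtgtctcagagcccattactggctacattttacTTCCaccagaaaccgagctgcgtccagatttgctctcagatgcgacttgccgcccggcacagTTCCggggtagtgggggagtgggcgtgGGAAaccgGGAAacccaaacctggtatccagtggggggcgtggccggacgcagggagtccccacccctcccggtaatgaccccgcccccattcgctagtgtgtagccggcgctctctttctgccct
Flt1: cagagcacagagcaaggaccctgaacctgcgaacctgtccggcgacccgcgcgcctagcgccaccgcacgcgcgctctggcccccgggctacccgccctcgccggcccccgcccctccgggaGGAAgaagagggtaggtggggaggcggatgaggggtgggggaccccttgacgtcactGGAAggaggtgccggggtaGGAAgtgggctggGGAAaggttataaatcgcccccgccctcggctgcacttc
Flt4: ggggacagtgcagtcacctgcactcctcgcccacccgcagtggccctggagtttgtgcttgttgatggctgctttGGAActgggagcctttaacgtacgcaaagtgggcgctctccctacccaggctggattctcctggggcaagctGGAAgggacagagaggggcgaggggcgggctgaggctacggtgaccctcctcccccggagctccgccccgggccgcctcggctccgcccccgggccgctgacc
Tek: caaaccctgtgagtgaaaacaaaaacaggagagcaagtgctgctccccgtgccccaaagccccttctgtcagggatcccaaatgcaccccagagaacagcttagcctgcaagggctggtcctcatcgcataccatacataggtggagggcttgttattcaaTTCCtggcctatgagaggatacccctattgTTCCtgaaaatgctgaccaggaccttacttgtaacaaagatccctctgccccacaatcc
Tie1: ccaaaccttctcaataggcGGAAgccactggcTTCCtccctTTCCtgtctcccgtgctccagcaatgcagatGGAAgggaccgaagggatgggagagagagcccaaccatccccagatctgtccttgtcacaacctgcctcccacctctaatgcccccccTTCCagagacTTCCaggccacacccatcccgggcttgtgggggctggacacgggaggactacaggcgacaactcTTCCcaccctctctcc
RefSeq windows were at hand for 8 of the 10 members.

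GGAA was found 4 times in the Kdr window, 4 times in Flt1, 2 times in Flt4, 2 times in Tek and 7 times in Tie1, both strands counted. Of all 32851 promoter windows of this length 93.4% held it, with a median of 3 matches, so its presence does not set the receptors apart. Nrp1 also held 4 matches, and Pgf held none in either of its 2 windows. The longer form CAGGAAG was in none of the 9 windows of members and in 10.8% of all windows. Kdr, Flt1 and Flt4 held the GC box GGGCGG (2, 3 and 3 matches), against 32.7% of all windows with at least 1, while Tek and Tie1 held none. Vegfc (2 matches), Pgf (2 in 1 of its windows) and Nrp1 (1) held it too. The windows of Kdr, Flt1 and Flt4 were 61.6%, 70.4% and 68.4% G or C, and those of Tek and Tie1 51.2% and 60.4%. The median over all windows was 52.4%, and the part of this share in the GC box matches was not tested. Only Flt1 among the members held TATAAA, 31 to 26 bases before its start, a run of letters present in 12.4% of all windows. TGANTCA, the AP-1 letters, was in none of the members' windows and in 6.75% of all. These are matches of letters, not measured binding.

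The first comparison, of EAE with Control, addresses the effect of disease. All 5 endothelial receptor genes fell, Kdr to 36.8% and Flt1, Tie1 and Tek to 46.1%, 49.0% and 49.8% of the Control mean, and Nrp1 and Pgf rose slightly. In edgeR's quasi-likelihood test with Benjamini-Hochberg adjustment over 16749 genes, 5 members fell and 2 rose at an adjusted p under 0.05. Among all genes tested 16.7% fell and 20.2% rose, 37.0% in all. The groups did not overlap for 6 members (4 lower, 2 higher), against 46.6% of all genes (21.1% lower, 25.6% higher). With each library's trend with gene length removed, 10.2% of all genes fell and 15.2% rose, and of the members 4 fell and 1 rose. That trend itself differed, at r = 0.182 to 0.288 across genes in Control libraries, -0.214 to -0.142 in EAE and -0.234 to 0.0144 in treated mice, and its part in the falls beyond that removal was not tested. The median log2 fold change of the 10 members was -0.57, against 0.01 over all genes tested. Each library held RNA of whole cord tissue, so fewer endothelial cells and less RNA per cell cannot be told apart.

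Some markers of other kinds also fell in EAE. The posterior Hox genes Hoxc9 (6.83, 11.8 and 10.8 CPM in Control, 2.05, 4.55 and 3.99 CPM in EAE) and Hoxc10 (0.821, 3.61 and 4.19 CPM, then 0.121, 0.481 and 0.249 CPM) fell, and the other 4 Hox genes did not pass. Treated mice had 7.90, 8.02 and 2.02 CPM of Hoxc9 and 1.02, 0.905 and 0.256 CPM of Hoxc10. Within Control, replicate 1 was lowest in both Hox genes and highest in all 5 receptor genes. It was also the library with skeletal muscle genes at 41.4 CPM, against 2.16 to 3.11 CPM in the others. The erythroid genes tested, Hba-a2 (log2 -1.05, SE 0.25) and Alas2 (log2 -1.07, SE 0.27), both fell, and the erythroid list summed to 4.11 to 6.39 CPM in Control, 2.08 to 2.69 CPM in EAE and 2.08 to 3.58 CPM in treated mice. Of 8 neuron markers 5 fell, against 16.7% of all genes. Their sums were 4826 to 5128, 3966 to 4250 and 4160 to 4437 CPM in the same order of groups. The part of cord position, muscle tissue, blood content or neuronal RNA in the falls of the receptors was not tested.

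Kdr (gene 16542, chromosome 5 from 75933265 to 75978428 in mm10) stood at 29.1, 24.1 and 13.4 CPM in Control replicates 1 to 3 and at 10.9, 6.66 and 6.92 CPM in EAE. The lowest Control library lay above the highest EAE library. Kdr fell 2.71-fold (log2 -1.44, SE 0.26, adjusted p = 0.00164), the largest fall among the members. Flt1, on the same chromosome from 147562196 to 147725988, was measured at 80.7, 70.2 and 42.2 CPM in Control and at 35.8, 32.4 and 20.7 CPM in EAE. Again the groups did not overlap, and the fall was 2.17-fold (log2 -1.12, SE 0.23, adjusted p = 0.00292). Flt4 (chromosome 11 from 49609679 to 49652739) had 7.26, 6.52 and 4.32 CPM in Control and 4.44, 3.91 and 3.24 CPM in EAE. EAE replicate 1 lay above Control replicate 3, and the fall was smaller, at 1.56-fold (log2 -0.64, SE 0.19, adjusted p = 0.0192). The Flt4 call was lost on leaving out Control replicate 1 (adjusted p = 0.0626), Control replicate 2 (0.0569) or EAE replicate 3 (0.0606) and with the trend of each library with gene length removed (0.0833).

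The angiopoietin receptors fell by about the same factor. Tek (gene 21687, chromosome 4 from 94739300 to 94874939) had 23.1, 21.1 and 17.2 CPM in Control and 12.4, 10.3 and 7.86 CPM in EAE, lower 2.005-fold (log2 -1.003, SE 0.18, adjusted p = 0.00147). Tie1, also on chromosome 4, from 118471191 to 118489849, had 17.5, 16.9 and 9.93 CPM in Control and 8.94, 7.34 and 5.43 CPM in EAE, lower 2.04-fold (log2 -1.03, SE 0.21, adjusted p = 0.00334). Neither gene had overlapping groups. The receptors shared an order of libraries: Control replicate 3 was the lowest Control library for all 5, and EAE replicate 3 the lowest EAE library for Flt1, Flt4, Tek and Tie1. The summed endothelial markers had the same lowest libraries, at 558 CPM in Control replicate 3 and 424 CPM in EAE replicate 3. The calls of Kdr, Flt1, Tek and Tie1 held with each of the 9 libraries left out in turn, at adjusted p up to 0.0156, and the fall of Kdr then ranged from log2 -1.73 to -1.23. Without Control replicate 3 the falls of these 4 genes were larger than with it.

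**Figure D1:**
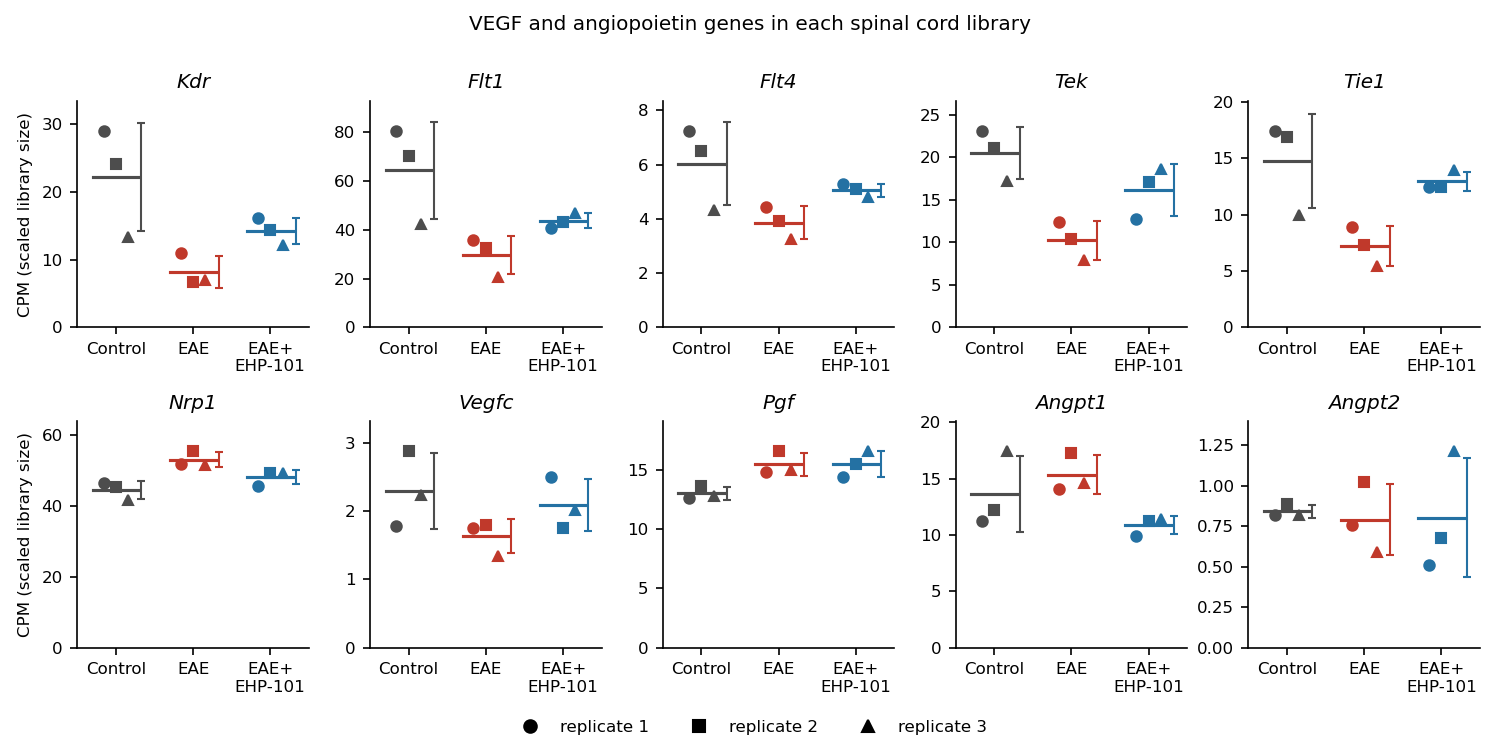
Level of each gene in CPM (vertical axis, from 0, own scale per gene) in the 3 libraries of each group; symbols give the replicate, horizontal lines the mean and bars 1 SD. Kdr, Flt1, Tek and Tie1 have no EAE library as high as the lowest Control library, and for Tie1 the treated libraries sit at 12.4 to 13.96 CPM.

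The co-receptor and the ligands were less alike. Nrp1, which binds VEGF and semaphorins and joins Kdr in signalling, had 46.4, 45.2 and 41.5 CPM in Control and 51.8, 55.4 and 51.5 CPM in EAE. Every EAE library exceeded every Control library, and the rise was 1.19-fold (log2 0.25, SE 0.06, adjusted p = 0.00979). Without EAE replicate 2 it no longer passed (adjusted p = 0.0806). Pgf, a ligand of Flt1, went from 12.6, 13.7 and 12.8 CPM to 14.9, 16.6 and 15.0 CPM, higher 1.19-fold (log2 0.25, SE 0.08, adjusted p = 0.0404). That call ended in 14 of 16 alternatives, among them each Control or EAE library left out and removal of the gene length trend, where the change was log2 0.11 (adjusted p = 0.362). Myeloid, fibroblast and T cell markers also rose in EAE, with sums of 1015 to 1366, 223 to 236 and 10.1 to 12.4 CPM, and their part in these rises was not tested. In treated mice Pgf was at 119% of the Control mean, as in EAE, and Nrp1 at 108%.

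Vegfc, the ligand of Flt4, had 1.77, 2.88 and 2.23 CPM in Control and 1.75, 1.79 and 1.34 CPM in EAE, resting on 43 to 91 counts a library. The difference of log2 -0.49 (95% interval -0.99 to -0.003) did not pass (adjusted p = 0.105), but did without Control replicate 1 (0.0416). Angpt1 had 11.2, 12.2 and 17.5 CPM in Control and 14.1, 17.3 and 14.6 CPM in EAE. Control replicate 3, lowest in the receptors, was highest in Angpt1. The interval of its change ran from log2 -0.16 to 0.50 (adjusted p = 0.410), and without Control replicate 3 it passed as a rise (log2 0.36, adjusted p = 0.0281). An antisense gene, Gm17473, shares 555 bases of Angpt1's exons, and whether the counting used strand is not given in the sources used here. Angpt2 had 16 to 38 counts a library and 0.842 ± 0.0380 CPM in Control against 0.791 ± 0.219 CPM in EAE (SD, n = 3), and its interval was wide, from log2 -0.81 to 0.62 (adjusted p = 0.846).

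Treated mice were compared with untreated EAE mice to ask what the compound changed in diseased cord. Tie1 rose, and the other 4 receptor genes were higher in every treated library than in every EAE library without passing the test. Of the 10 members 1 rose and 0 fell in edgeR's quasi-likelihood test, where 0.43% of all genes rose and 4.81% fell, 5.24% in all (0.37% and 4.93% with the gene length trend removed). At an unadjusted p under 0.05 were 6 members, and 16.2% of all genes. By the Wald test of DESeq2 3 members passed, Tie1 and Tek upward and Angpt1 downward, and 7.0% of all genes with an adjusted p. No overlap between the groups was seen for 7 of 10 members (5 higher, 2 lower), against 27.6% of all genes tested (10.7% higher, 16.9% lower).

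Tie1 had 12.4, 12.5 and 13.96 CPM in treated mice, above the 5.43 to 8.94 CPM of EAE and 87.7% of the Control mean. The rise over EAE was 1.79-fold (log2 0.84, SE 0.21, adjusted p = 0.0461). The size was stable, from log2 0.67 to 1.02 with each library left out, but the call was not. It ended without Control replicate 2, EAE replicate 2, EAE replicate 3 or any one of the treated replicates (adjusted p = 0.0628 to 0.138), with library totals in place of TMM factors (0.0547) and with the gene length trend removed (0.0508). Tek had 12.7, 17.1 and 18.6 CPM in treated mice against 7.86 to 12.4 CPM in EAE, 1.58-fold the EAE level (log2 0.66, SE 0.18, adjusted p = 0.0618). Treated replicate 1 lay just above the highest EAE library, and without it the difference passed (adjusted p = 0.0227), as it did without Control replicate 3 (0.0442) or EAE replicate 1 (0.0486).

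Kdr stood at 16.2, 14.3 and 12.2 CPM in treated mice, between the EAE libraries and the 2 highest Control libraries. The difference from EAE was log2 0.80 (SE 0.27, 95% interval 0.21 to 1.38, adjusted p = 0.133), and it passed with only the EAE and treated libraries in the fit (0.0445) or without Control replicate 3 (0.0272). Flt1 stood at 40.7, 43.3 and 47.0 CPM, all above the 20.7 to 35.8 CPM of EAE, at log2 0.56 (SE 0.23, adjusted p = 0.237). Flt4, at 5.28, 5.11 and 4.80 CPM, differed by log2 0.39 (SE 0.19, adjusted p = 0.345). Relative to the Control mean the treated means were 64.1% for Kdr, 67.9% for Flt1, 83.9% for Flt4 and 78.8% for Tek, where the EAE means were 36.8%, 46.1%, 64.0% and 49.8%. The 3 comparisons share libraries, so a low value in EAE enters both the fall in EAE and the difference between treated and EAE mice.

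**Figure D2:**
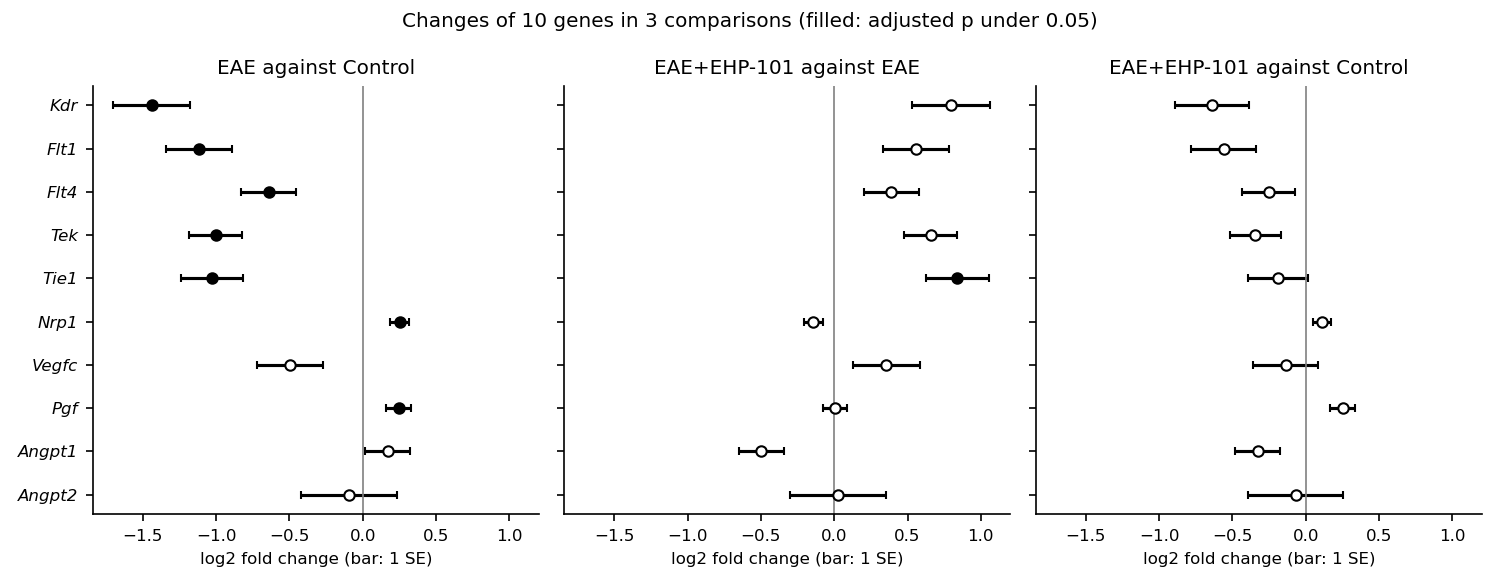
Log2 fold change (horizontal axis) with 1 SE for the 10 genes in the 3 comparisons; filled points passed an adjusted p of 0.05. In EAE against Control 7 points are filled, in EAE+EHP-101 against EAE only Tie1, and in EAE+EHP-101 against Control none.

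Among ligands and the co-receptor, Angpt1 was lower in treated than in EAE mice. It had 9.92, 11.2 and 11.4 CPM against 14.1 to 17.3 CPM, with no overlap, a difference of log2 -0.50 (SE 0.15, 95% interval -0.84 to -0.16) that did not pass (adjusted p = 0.102). It passed without Control replicate 3 (adjusted p = 0.0192), a library outside this comparison that adds to the common estimate of the spread. Nrp1 had 45.6, 49.2 and 49.0 CPM, below every EAE library, at log2 -0.14 (SE 0.06, adjusted p = 0.302). Pgf remained near its EAE level, at 14.4, 15.5 and 16.6 CPM (log2 0.01, 95% interval -0.18 to 0.19, adjusted p = 0.982). Vegfc (2.49, 1.75 and 2.02 CPM, adjusted p = 0.499) and Angpt2 (0.512, 0.679 and 1.22 CPM, adjusted p = 0.982) overlapped with EAE.

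Treated mice were last set against Control. None of the 10 members passed edgeR's quasi-likelihood test, where 19.8% of all genes did (9.96% higher, 9.82% lower; 4.54% and 4.73% with the gene length trend removed). Kdr, Flt1 and Pgf had an unadjusted p under 0.05, as did 35.1% of all genes, and the Wald test of DESeq2 called 0 members and 21.9% of all genes. Kdr was at log2 -0.64 (95% interval -1.20 to -0.09, adjusted p = 0.0961) and Flt1 at log2 -0.56 (interval -1.05 to -0.07, adjusted p = 0.0981). Tie1 was at log2 -0.19 (interval -0.64 to 0.26) and Tek at log2 -0.34 (interval -0.73 to 0.04). Without Control replicate 3, Kdr, Flt1 and Flt4 were lower in treated mice (adjusted p = 0.0113, 0.0131 and 0.0437). Pgf was higher in every treated library than in every Control library, the only member without overlap here against 36.5% of all genes (19.0% higher, 17.5% lower). Its difference was log2 0.25 (SE 0.08, adjusted p = 0.0578) and passed without treated replicate 1 (0.0449).

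Levels between genes were compared as RPKM, the CPM divided by the counted exon length in kilobases. In Control the order ran from Flt1 (10.2 ± 3.17 RPKM, SD, n = 3), Pgf (8.30 ± 0.355) and Nrp1 (7.49 ± 0.437) through Tek (4.40 ± 0.647), Kdr (4.07 ± 1.47), Tie1 (3.81 ± 1.08) and Angpt1 (3.34 ± 0.824) to Vegfc (1.22 ± 0.295), Flt4 (1.03 ± 0.261) and Angpt2 (0.340 ± 0.0154). The libraries of Flt1 and Pgf overlapped, as did those of neighbours from Tek to Angpt1 and those of Vegfc and Flt4. In EAE Pgf (9.86 ± 0.608 RPKM) and Nrp1 (8.93 ± 0.370) stood above Flt1 (4.72 ± 1.26) in every library. Kdr moved from place 5 in Control to place 7 in EAE (1.498 ± 0.439 RPKM), behind Angpt1, Tek and Tie1, though the EAE libraries of Kdr and Tie1 overlapped, as did those of Tie1 and Tek. In treated mice Flt1 had 6.96 ± 0.498 RPKM and Kdr 2.61 ± 0.3595 RPKM, again in places 3 and 7.

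Ratios between related members were formed in each library from RPKM + 0.1. The ratio of Pgf to Vegfc was 5.40 to 7.82 in Control and 9.28 to 11.9 in EAE without overlap. This was the smallest p that 3 against 3 libraries allows (exact permutation test, 2-sided, p = 0.1, adjusted over 12 tests 0.400), so no ratio could pass. Flt1 to Kdr was 2.38 to 2.67 in Control and 2.48 to 3.98 in EAE, and Tie1 to Tek was 0.701 to 0.963 and 0.838 to 0.869, both overlapping. Tie1 to Tek was 0.877 to 1.17 in treated mice, above every EAE library (exact permutation p = 0.1, adjusted 0.400). Angpt2 to Angpt1, a ratio often read as a sign of vessel destabilisation, was 0.0983 to 0.152 in Control and 0.0923 to 0.118 in EAE, which overlapped. In treated mice it was 0.121 to 0.204, above every EAE library (exact permutation p = 0.1, adjusted 0.400). That separation depends on the added 0.1 RPKM, which is large beside the level of Angpt2. Treated replicate 1 had 0.207 RPKM of Angpt2 to 2.43 of Angpt1, and EAE replicate 2 had 0.414 to 4.24. Without the addition the ratio of the former lies below that of the latter, so the groups overlap. The ratio of Angpt2 to Angpt1 rests on 16 to 38 counts of Angpt2 a library. Between treated and EAE mice Angpt2 itself was at log2 0.02 and Angpt1 at log2 -0.50. Neither passed edgeR's test (adjusted p = 0.982 and 0.102).

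The falls of the receptors were next read beside other endothelial transcripts. Of the 20 endothelial markers, none of them a member, 10 fell and 0 rose in EAE, against 16.7% and 20.2% of all genes tested. Their median log2 fold change was -0.56, against 0.01 over all genes. Cdh5, the cadherin of endothelial junctions, fell from 13.9 ± 3.19 to 5.47 ± 1.54 CPM (log2 -1.34, SE 0.22), about as far as Kdr. The drug efflux pump gene Abcb1a (log2 -1.06, SE 0.18), the adhesion molecule gene Pecam1 (log2 -1.01, SE 0.19) and the organic anion transporter gene Slco1a4 (log2 -0.75, SE 0.15) were the next by p. Other markers stood near 0: Itm2a at log2 -0.01 (adjusted p = 0.964), Mfsd2a at log2 -0.07 (0.743) and Ly6c1 at log2 -0.08 (0.767). In treated against EAE mice 0 of 20 markers passed, against 5.24% of all genes. Of the 20 markers 18 were positive, with a median of log2 0.40. DESeq2 called 5 of the 20 higher there, where it called 7.0% of all genes in either direction. Without Control replicate 3 edgeR also called 5. In treated against Control mice 0 of 20 passed, against 19.8% of all genes. DESeq2 called 2 lower. With edgeR 5 were lower without Control replicate 3, 3 without EAE replicate 3 and 1 without EAE replicate 1.

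**Figure D3:**
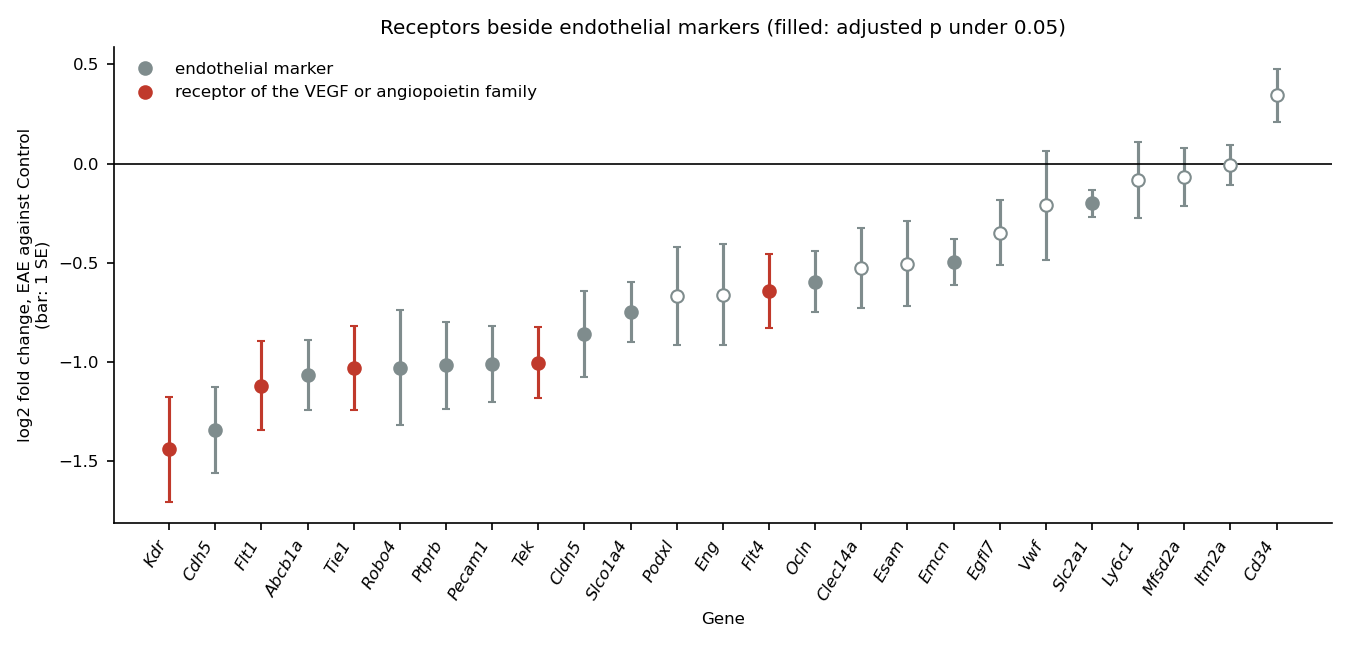
Log2 fold change of EAE against Control with 1 SE (vertical axis) for the 5 receptor genes and 20 endothelial markers, ordered by size; filled points passed an adjusted p of 0.05. Kdr lies lowest at -1.44 beside Cdh5 at -1.34, Flt1, Tie1 and Tek lie among Abcb1a, Robo4, Ptprb and Pecam1, and 10 of the markers did not pass.

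Against the mean of the 20 markers in the same library, on the log2(CPM + 1) scale, Kdr stood at -0.06, -0.20 and -0.57 in Control and at -0.85, -1.44 and -0.92 in EAE. It was thus lower relative to these markers by log2 0.79, without overlap. Flt1 was lower by log2 0.56, Tek by 0.43 and Tie1 by 0.41, also without overlap, while Flt4 was at the same distance in both groups (difference 0.00). Each had the smallest p that the design allows or a larger one (exact permutation test, 2-sided, p = 0.1 for Kdr, Flt1, Tek and Tie1, adjusted over 30 tests 0.200), so none could pass. The pseudocount understates the change of Flt4, the lowest of the receptors. Tie1 was at -1.11 to -1.31 in EAE and at -0.71 to -0.87 in treated mice, within the -0.69 to -0.97 of Control. Flt1 was at 0.82 to 0.92 in treated mice, above every EAE library (0.53 to 0.78) and below every Control library (1.01 to 1.38). Tek, at -0.69 to -0.44, also lay below every Control library (-0.39 to -0.24) and overlapped with EAE. Kdr, at -1.04 to -0.36, overlapped with both. Nrp1 stood higher relative to the markers in EAE (1.30 to 1.81) than in Control (0.60 to 0.99). The markers themselves fell in EAE (median log2 -0.56), so a gene at a steady level also stands higher by this measure. The change of Nrp1 itself was log2 0.25.

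**Figure D4:**
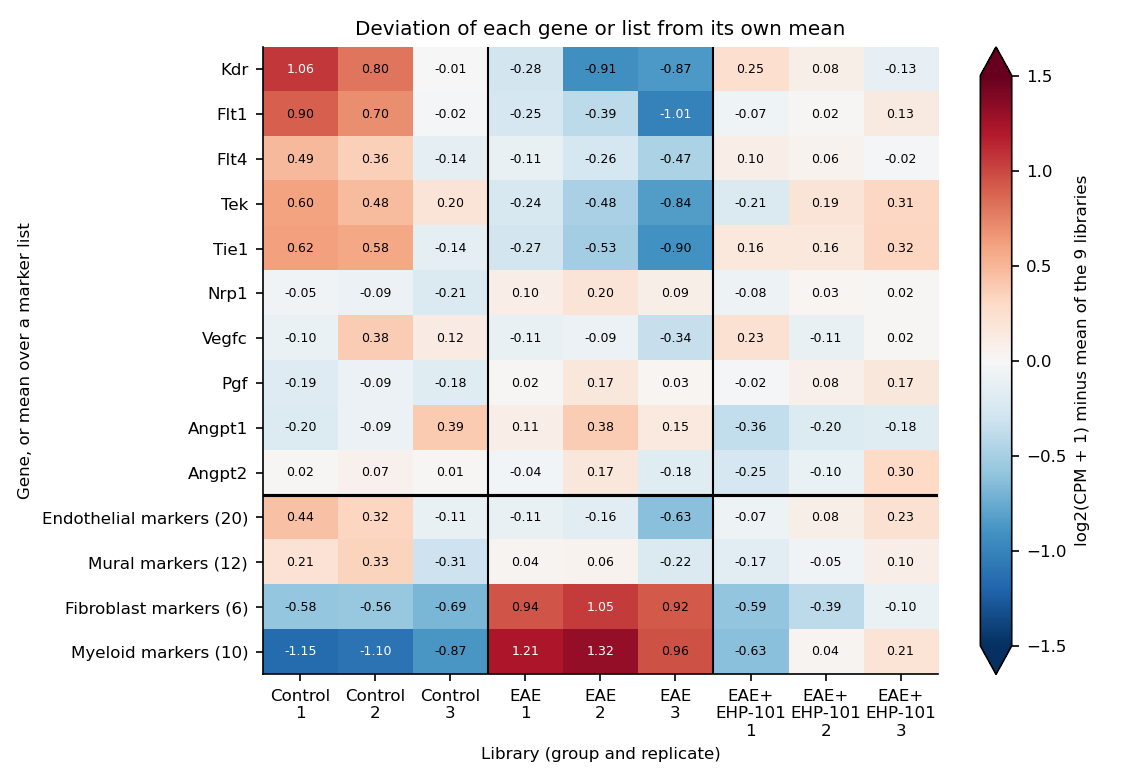
Each cell gives log2(CPM + 1) of a gene, or its mean over a marker list, in 1 of the 9 libraries minus the mean of that row. The lowest value of each of the 5 receptor rows and of the endothelial row is in an EAE library, whereas fibroblast and myeloid rows are highest there.

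Markers of neighbouring vessel cells did not move as one. Among 12 mural markers 4 fell and 2 rose in EAE, against 16.7% and 20.2% of all genes. The pericyte gene Rgs5 (log2 -0.86, SE 0.13) and the channel subunit gene Abcc9 (log2 -0.90, SE 0.19) fell. The 2 that rose were Tagln (log2 1.52, SE 0.16) and Anpep (log2 1.57, SE 0.23), lower again in treated mice (log2 -0.95 and -1.37 against EAE). Acta2 and Myh11 of the same list went down in EAE, from 7.23 ± 1.67 to 4.15 ± 1.19 CPM and from 7.78 ± 2.24 to 3.59 ± 1.10 CPM. Fibroblast markers rose in 5 of 6, against 20.2% of all genes, led by Col3a1 (log2 3.11, SE 0.18). The 6 summed to 223 to 236 CPM in EAE against 115 to 116 CPM in Control. Pdgfra, which did not rise, gave a mean of 66.4 CPM of the Control sums and 60.5 CPM of the EAE sums. Of the lymphatic list 4 of 6 genes were tested, and Ccl21a, the lymphatic chemokine, had no count in any library. Prox1 (log2 -0.47) and Reln (log2 -0.45), both also expressed outside lymphatics, fell, Pdpn rose (log2 1.92) and Lyve1 did not pass (log2 0.11, adjusted p = 0.830).

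The pathway around the members was read from lists of other genes. Of 16 other ligands, co-receptors and partners 5 fell and 4 rose in EAE, against 16.7% and 20.2% of all genes. Vegfa, the main ligand of Kdr and Flt1, fell from a Control mean of 104 to 69.95 ± 14.5 CPM (log2 -0.58, SE 0.14, adjusted p = 0.00821) and had 88.6 ± 7.33 CPM in treated mice. Ptprb, the phosphatase that restrains Tek and is also among the 20 endothelial markers, fell (log2 -1.02, SE 0.22), and so did Sema3c, a neuropilin ligand (log2 -0.64, SE 0.09). The integrin subunit gene Itga5 rose (log2 1.88, SE 0.25) and was lower in treated than in EAE mice (log2 -1.12, SE 0.24, adjusted p = 0.0186), as was Itgb1 (log2 0.29, SE 0.08, then log2 -0.31, SE 0.08). These were the only 2 of the 16 called between treated and EAE mice, against 5.24% of all genes.

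Of 22 signalling genes 4 fell and 5 rose in EAE, where 16.7% and 20.2% of all genes tested did. By edgeR 0 were called between treated and EAE mice, against 5.24% of all genes. Nos3, the endothelial nitric oxide synthase, fell (10.5 ± 2.51 to 5.45 ± 1.23 CPM, log2 -0.94, SE 0.20). The adaptor genes Sh2d2a (log2 4.78, SE 0.71) and Dok2 (log2 1.54, SE 0.30), both also expressed in leukocytes, rose. The kinase gene Akt1 did not pass (log2 0.05, adjusted p = 0.520).

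Transcription factors of endothelium were tested in 16 of 17 cases, with 3 lower and 5 higher in EAE (16.7% and 20.2% of all genes). Sox7 fell from 1.67 ± 0.435 to 0.734 ± 0.180 CPM (log2 -1.18, SE 0.26) and stood at 1.71 ± 0.197 CPM in treated mice, higher than in EAE (log2 1.22, SE 0.26, adjusted p = 0.0194). It was the only gene of this list to rise there. Of the ETS factors, whose letters are marked in the sequences above, Fli1 (log2 0.78, SE 0.16), Etv6 (log2 0.41, SE 0.07) and Elk3 (log2 0.40, SE 0.13) rose in EAE. Erg did not pass (log2 -0.47, SE 0.18, adjusted p = 0.0555) and Ets1 was at log2 -0.08 (adjusted p = 0.726). Fli1 and Etv6 are also expressed in leukocytes. Etv6 (log2 -0.29) and Elk3 (log2 -0.53) were lower in treated than in EAE mice.

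Genes of the angiogenic response were tested in 17 of 18 cases, with 3 lower and 6 higher in EAE (16.7% and 20.2% of all genes). Dll4, the Notch ligand of sprouting tip cells, fell from 2.40 ± 0.581 to 1.26 ± 0.342 CPM (log2 -0.93, SE 0.24). Esm1, another tip cell gene, rose from 0.421 ± 0.0847 to 1.45 ± 0.526 CPM (log2 1.77, SE 0.48, adjusted p = 0.0142), so the tip cell genes did not move in 1 direction. Plaur (log2 2.72, SE 0.30) and Cxcr4 (log2 1.55, SE 0.18) also rose, both also expressed in leukocytes, and both were lower in treated than in EAE mice (log2 -1.62 and -1.16). Apln, a peptide ligand made by endothelium and other cells, fell (log2 -0.34, SE 0.06), and Rcan1, induced by calcineurin signalling, rose (log2 0.47, SE 0.07).

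Genes with the pattern nearest to Kdr were sought among 13661 genes, by the root mean square difference of log2(CPM + 1), each gene centred, over the 9 libraries. The 5 nearest were Flt1 (0.236), Cdh5 (0.244), 4930432E11Rik (0.246), Tbx3 (0.262) and Tie1 (0.262). For Tek they were Sema3g (0.0882), Nos3 (0.105), St6galnac2 (0.114), Abcb1a (0.117) and Pecam1 (0.118). Sema3g encodes a semaphorin that binds neuropilins. Sema3g passed between treated and EAE mice in edgeR's test, at log2 0.71 (SE 0.18, adjusted p = 0.0461). It was picked for likeness to Tek over these same libraries, so that value is not separate evidence. Angpt1 was at place 12333 from Kdr and 12158 from Tek. All 9 libraries share the 3 groups, so these differences describe the groups as much as the genes.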

How the data were processed

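Per the labels' protocols, 1 poly-A selected stranded library per mouse was sequenced with single-end reads of 50 bp. The deposited values are read counts per gene, not normalised, per the file headers. The submitters' processing notes list, with no role given, the build mm10, featureCounts 1.6.1, HISAT2 2.1.0, DESeq2 1.20.0 and Trimmomatic 0.36, with the strand setting and the handling of multiply mapped reads not given in the sources used here.

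Symbols came from a RefSeq table of GRCm38.p6 (25275 of 27179 identifiers). In R 4.3.3, edgeR 4.0.16 kept 16749 genes (filterByExpr), scaled libraries by TMM and fitted 1 mean per group to all 9 libraries by quasi-likelihood, with adjusted p under 0.05 over all genes tested as the call. SE was taken as the size of the log2 change over the square root of F, and 95% intervals use the t distribution. Alternatives were DESeq2 1.42.0 (its size factors and its Wald test), library totals, no filter, removal of each library's trend with gene length, a replicate block, 2 groups only, and each library left out. Per-library values used exact permutation tests (scipy 1.17.1) with pseudocounts of 1 CPM or 0.1 RPKM. Named were all members, up to 4 genes per list by p in each of EAE against Control and treated against EAE, and the 5 genes nearest to Kdr and Tek; other genes were named after their values were seen, and some genes the rule names are not reported here. Members and lists were chosen with earlier results of these data known. Processing batches: not given in the sources used here. Each p-value reflects only how these 9 libraries vary.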

Additional observations from a re-analysis of the deposited data

How the results depend on the processing

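The number of members called for EAE against Control (7) stayed within 1.5 times in every alternative run and was 5 to 7 with each library left out; that of endothelial markers (10) was 8 to 15. For EAE+EHP-101 against EAE 1 member was called, 3 by DESeq2's Wald test, 2 without the low count filter, 0 with library totals, 0 with the gene length trend removed, 3 with only the 2 groups fitted, and 0 to 4 with a library left out; endothelial markers went from 0 to 5 by DESeq2, 1 with 2 groups and 0 to 5 with a library left out. For EAE+EHP-101 against Control the members went from 0 to 1 with library totals, 1 with the length trend removed and 0 to 3 with a library left out. Endothelial markers there went from 0 to 2 by DESeq2, 1 without the filter, 3 with 2 groups and 0 to 5 with a library left out. The cause of these moves was not tested.

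The replicate number as a block gave 2 members called for EAE+EHP-101 against EAE and 1 for EAE+EHP-101 against Control. Deviations of same-numbered libraries correlated at -0.187 to 0.123, a check that cannot settle pairing. Whether the replicate number pairs mice is not given in the sources used here.

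Counts of comparisons without overlap were 15 of 30 relative to endothelial markers (15 to 20 with a library left out) and 3 of 12 for the ratios (3 to 5). No share over all genes was computed for either measure, so these counts describe only how steady the values were. Of the alternative values for single genes, 423 kept direction and side of the threshold, 27 lost the call, 20 gained it and 10, all uncalled, turned sign. Angpt2 in EAE against Control was 0.063 without EAE replicate 3 (range with a library left out -0.35 to 0.063). In treated against EAE mice it was -0.01, -0.14 and -0.40 without EAE replicate 1, EAE replicate 3 and treated replicate 3, where Pgf was -0.02, -0.01 and -0.046 (ranges -0.40 to 0.27 for Angpt2 and -0.046 to 0.074 for Pgf). In treated against Control mice Angpt2 was 0.16 and 0.03 without treated replicates 1 and 2, and Vegfc 0.043 without Control replicate 2 (ranges -0.51 to 0.16 and -0.31 to 0.043). Low counts limit Angpt2 and Vegfc.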
